A study of Mus musculus with 6 samples.

Results

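Integrins are membrane receptors made of 1 alpha and 1 beta chain. Here 10 genes for such chains were examined in mouse Th17 cells, helper T cells that secrete interleukin 17. The cells were control or labelled KO for RTF1, a transcription elongation factor that works with the PAF1 complex. The alpha chains were Itga4, Itga7, Itgae, Itgal and Itgav, and the beta chains were Itgb1, Itgb2, Itgb3, Itgb7 and Itgb8. These 10 were chosen by name from a table of 31017 genes, with their values in the same 6 libraries already known. Their KO against control differences are therefore described here, and no conclusion is drawn from tests on them. All 10 passed the filter on low counts, as did 14268 genes in all. The control group was labelled Th17 with genotype WT (3 libraries), and the KO group Th17 with genotype KO and named RTF1-deficient (3 libraries). All cells of both groups were differentiated to Th17 cells in culture. The allele, any Cre driver, the strain, sex and age of the mice, the culture time and whether replicates came from separate animals are not given in the sources used here. The p-values below therefore measure the spread between these libraries, which may in part be technical.

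As background, alpha chains mostly decide which ligand an integrin binds, and beta chains carry much of the contact with the cytoskeleton. In T cells, Itgal and Itgb2 together form LFA-1, which binds ICAM proteins on other cells. Itga4 pairs with Itgb1 to bind VCAM-1 and with Itgb7 to bind MAdCAM-1 of gut vessels, while Itgae pairs with Itgb7 to bind E-cadherin on epithelium. Itgav pairs with Itgb1, Itgb3 or Itgb8, and the pair with Itgb8 is known for activating latent TGF-beta, a cytokine that helps to induce Th17 and regulatory T cells. Itga7 pairs with Itgb1 as a laminin receptor and is best known from muscle.

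Total counts ranged from 16489813 (control replicate 1) to 51271226 (control replicate 2). Rtf1, the targeted gene, held 94.0, 91.2 and 88.3 CPM (counts scaled to a common library total) in control and 45.3, 30.4 and 26.2 CPM in KO (−1.42 on the log2 scale with an SE of 0.191, edgeR adjusted p = 0.000755). The mean Rtf1 level in KO was thus 0.372 of that in control. Replicate 3 of both groups stood apart in sex: these libraries held 11376 and 5147 counts over 4 Y-linked genes, against 1 to 3 counts in the others. For named genes called in the fit on all 6 libraries, values without this pair are given where they end the call or move the value by more than 1.5 times. They are also given for some other members. Other genes of the lists below may lose their call without this pair. The 9 T cell markers summed to 2590 to 3090 CPM in control and 2200 to 2630 CPM in KO. Of these, 2 were called higher and 4 lower, where 46.1% of all tested genes were called. Cd4 held 443 to 539 CPM in control and 218 to 290 CPM in KO, and Cd3e held 180 to 209 and 289 to 347 CPM. The 6 Th17 markers summed to 1600 to 2130 and 594 to 1250 CPM, with 4 of the 6 called lower in KO. In these bulk libraries, fewer cells with a transcript and less of it per cell cannot be told apart.

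The members fell into 3 groups by their differences. Itga7 was lower in every KO library than in every control library, Itgav, Itgb1, Itgb3 and Itgb8 were higher in every KO library, and the libraries of the other 5 genes overlapped between groups. Over all tested genes, every KO library lay above every control library in 29.9% and below in 28.0%. By edgeR's test at an adjusted p under 0.05, the same 4 members were called higher and the same 1 lower, where 23.2% of all tested genes were called higher and 22.9% lower. Because the members were picked with these values known, nothing is read from those counts. The median log2 fold change was 0.152 over the 10 members and 0.0132 over all tested genes, and the median absolute log2 fold change was 0.385 and 0.535.

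**Figure D1:**
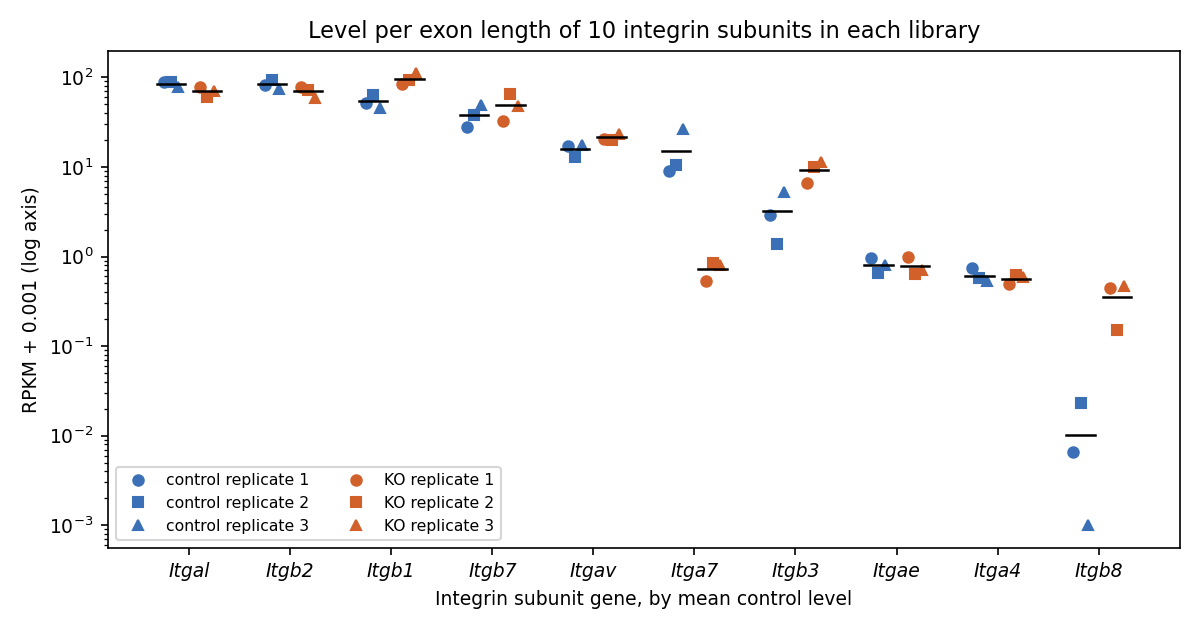
Level of each of the 10 integrin genes in each library, as RPKM (CPM per kilobase of exon) plus 0.001 on a log axis, with genes ordered by mean control level. Blue symbols are control and orange symbols KO libraries, shapes mark the replicate number, and black lines are group means; Itga7 is lower in all 3 KO libraries, Itgb8 and Itgb3 are higher in all 3, and the ranges of Itgae and Itga4 overlap.

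Levels of different genes were compared as RPKM, with exon lengths from GENCODE M21. These lengths join the exons of all annotated transcripts of a gene, so ranks and ratios between genes depend on that choice. In control, Itgal (84.9 ± 5.91 RPKM, SD, n = 3) and Itgb2 (83.2 ± 10.2) were the most abundant, and their ranges overlapped. Itgb1 (53.8 ± 9.28) followed below both, in a range that overlapped Itgb7 (38.3 ± 10.5). Itgav (15.9 ± 2.67) and Itga7 (15.2 ± 9.51) were not separated. Itgb3 (3.19 ± 1.97) came next, then Itgae (0.803 ± 0.153) and Itga4 (0.612 ± 0.108) with overlapping ranges, and Itgb8 (0.00930 ± 0.0117) was lowest.

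In KO the order began with Itgb1 (96.4 ± 13.1 RPKM), whose libraries all lay above those of Itgal (70.1 ± 8.77) and Itgb2 (69.7 ± 9.52). Itgal, Itgb2 and Itgb7 (48.7 ± 16.7) formed a run of overlapping neighbours. Itgav (21.3 ± 1.65) and Itgb3 (9.36 ± 2.38) were each separated from their neighbours. Itgae (0.776 ± 0.178), Itga7 (0.733 ± 0.173) and Itga4 (0.563 ± 0.0682) overlapped in turn, and Itgb8 (0.355 ± 0.178) remained the lowest. Itga7 thus stood at rank 6 of 10 in control and rank 8 in KO.

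Itgal and Itgb2, the LFA-1 chains, were close to each other in both groups. Itgal held 578, 582 and 513 CPM in control replicates 1, 2 and 3, and 515, 400.4 and 466 CPM in KO replicates 1, 2 and 3. The groups overlapped only through KO replicate 1, which lay just above control replicate 3 (log2 fold change −0.28, SE 0.134). Itgb2 held 251, 287 and 225 CPM in control and 236, 222 and 180.2 CPM in KO, again with overlap (−0.26, SE 0.145). Per exon length, the ratio of Itgal to Itgb2 was 0.943 to 1.07 in control and 0.838 to 1.2 in KO, so the LFA-1 chains kept a ratio near 1 in all 6 libraries.

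The chains of the gut-homing integrins were unequal in level. Itgb7 held 78.0, 104.7 and 136 CPM in control and 89.4, 182 and 134 CPM in KO. Replicate 1 was lowest in both groups and the ranges overlapped (log2 fold change 0.34, SE 0.268; 0.57 without replicate 3 of both groups, and 0.072 without KO replicate 2). Itga4 and Itgae, its alpha partners, were both near the bottom of the order. Itga4 held 10.3, 7.95 and 7.44 CPM in control and 6.80, 8.60 and 8.24 CPM in KO (−0.11, SE 0.208). Itgae, the CD103 chain, held 4.38, 2.97 and 3.68 CPM in control and 4.48, 2.94 and 3.25 CPM in KO (−0.040, SE 0.284), and its sign changed in 5 of the 14 alternative fits. Per exon length, Itgae reached 0.0164 to 0.0339 of the Itgb7 level in control and 0.00977 to 0.0303 in KO, and Itga4 reached 0.0108 to 0.0261 and 0.00938 to 0.0151. Part of the Itga4 count is uncertain, since 8.04% of its exonic bases overlap exons of the neighbouring gene Cerkl.

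Itgav and 3 chains it can pair with, Itgb1, Itgb3 and Itgb8, were higher in every KO library than in every control library. Itgav (chr2:83724397-83806916, plus strand; all positions are in GRCm38) held 185, 138 and 189.7 CPM in control and 223, 215 and 249 CPM in KO (log2 fold change 0.43, SE 0.146). Control replicate 2 was the lowest library, and without it the value was 0.28. Of its exonic bases, 5.9% overlap the gene Gm13684. Itgb1 (chr8:128685654-128733200, plus strand), the common beta chain, held 212, 260.5 and 186 CPM in control and 348, 379.9 and 452 CPM in KO, a mean 1.79 times as high (0.84, SE 0.160). KO replicate 3 was the highest, and without replicate 3 of both groups the value was 0.62.

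Itgb3 (chr11:104608000-104670476, plus strand), the beta chain of the vitronectin receptor, held 17.1, 8.19 and 31.2 CPM in control and 39.5, 59.6 and 66.5 CPM in KO. Control replicates differed widely, with a coefficient of variation of 61.6%, but the highest of them lay below the lowest KO library (log2 fold change 1.55, SE 0.417). Without control replicate 3 the value was 2.12, without replicate 3 of both groups it was 2.02, and without control replicate 2 it was 1.17. Itgb3 is also a platelet chain, where it pairs with Itga2b. Among 5 platelet markers, Ppbp had no count and Gp9 and Pf4 reached at most 0.0619 CPM, Itga2b lay between 0.764 and 1.71 CPM, and Gp1ba was at 1.32 to 1.70 CPM in control and 4.75 to 10.2 CPM in KO. The part of platelet-lineage RNA in the Itgb3 difference was not tested.

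Itgb8 (chr12:119158022-119238802, minus strand) was nearly without counts in control and low but present in KO. It held 1, 12 and 0 counts in control replicates 1, 2 and 3, and 130, 62 and 102 counts in KO. On the CPM scale this was 0.0608, 0.248 and 0 in control and 4.94, 1.66 and 5.19 in KO, so the groups did not overlap (log2 fold change 5.03, SE 0.849). Control replicate 2 supplied nearly all control counts, and the fitted value ran from 4.10 without replicate 3 of both groups to 7.45 without control replicate 2, where it rests on 1 control count in all. KO was the higher group in each of the 14 alternative fits. Even in KO the Itgav transcript exceeded Itgb8 by 46.5 to 134 times per exon length.

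The balance of Itgav against Itgb3 shifted alongside. Per exon length, Itgav exceeded Itgb3 by 5.94, 9.23 and 3.34 times in control replicates 1, 2 and 3, and by 3.10, 1.98 and 2.06 times in KO. All KO ratios lay below all control ratios. The ratio of Itgav to Itgb1, by contrast, was 0.331, 0.201 and 0.388 in control and 0.243, 0.215 and 0.209 in KO, and these ranges overlapped.

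The promoters of 5 of the 10 members were listed by RefSeq (GRCm38.p6), and those of Itgav, Itgb1 and Itgb8 are printed because these 3 genes were higher in KO. Each run covers 250 bases before to 50 after the RefSeq start, 5′ to 3′ on the gene's strand. The runs lie at chr2:83724147-83724446, chr8:128685404-128685703 and chr12:119238227-119238526 (plus, plus and minus strand). The Itgb8 run lies wholly inside the GENCODE M21 span of the gene, whose minus-strand start is at 119238802. Bases before that start were not searched. Capitals mark the only searched motif found in them, the GC box.
Itgav: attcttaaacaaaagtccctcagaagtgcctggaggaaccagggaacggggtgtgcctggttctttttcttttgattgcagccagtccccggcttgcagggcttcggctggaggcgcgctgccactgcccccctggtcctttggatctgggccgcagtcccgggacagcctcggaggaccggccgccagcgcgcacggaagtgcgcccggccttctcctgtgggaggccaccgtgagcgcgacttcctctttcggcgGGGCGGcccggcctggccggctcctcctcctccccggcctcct
Itgb1: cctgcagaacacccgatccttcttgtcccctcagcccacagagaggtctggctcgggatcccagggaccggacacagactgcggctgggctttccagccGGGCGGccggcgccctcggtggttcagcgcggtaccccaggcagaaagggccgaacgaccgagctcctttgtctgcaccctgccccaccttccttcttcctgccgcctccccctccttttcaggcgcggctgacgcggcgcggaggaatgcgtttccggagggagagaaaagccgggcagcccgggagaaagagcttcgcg
Itgb8: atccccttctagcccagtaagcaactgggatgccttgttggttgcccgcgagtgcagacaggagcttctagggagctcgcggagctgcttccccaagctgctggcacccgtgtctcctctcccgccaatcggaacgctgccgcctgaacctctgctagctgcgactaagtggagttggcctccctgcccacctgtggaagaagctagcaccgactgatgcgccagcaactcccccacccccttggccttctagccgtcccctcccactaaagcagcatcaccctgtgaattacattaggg

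Both strands were searched for the GC box (GGGCGG), the RUNX motif (TGTGGT), the AP-1 motif (TGANTCA) and the cyclic AMP response element (TGACGTCA). Itgav and Itgb1 each held 1 GC box and Itgb8 none, while 35.7% of the 32851 promoters of this length held at least 1. The other 3 motifs, present in 16.8%, 7.81% and 1.79% of all promoters, did not occur in the 3 printed windows. Itga4 held 1 RUNX motif and 1 GC box, and Itgb7 none of the 4 motifs. GC content was 67.3% for Itgav and Itgb1, 60.7% for Itgb8, 64.3% for Itga4 and 56.3% for Itgb7. A match describes letters only and is not evidence of binding.

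Itga7 (chr10:128933818-128958282, plus strand) showed the opposite pattern to its partner Itgb1. It held 73.3, 84.7 and 212 CPM in control replicates 1, 2 and 3, and 4.33, 6.92 and 6.56 CPM in KO replicates 1, 2 and 3. The lowest control library was above the highest KO library by a wide margin, and control replicate 3 was the highest of all. The mean was 20.8 times as high in control as in KO (log2 fold change −4.38, SE 0.435; −3.79 without control replicate 3 and, as the Itga7 log2 fold change of the libraries numbered 1 and 2, −3.80). Per exon length, Itga7 reached 0.175, 0.164 and 0.575 of the Itgb1 level in control and 0.00627, 0.00918 and 0.00731 in KO. Markers of stroma and muscle, cells that also express Itga7, summed to 1.28 to 2.01 CPM in control and 1.2 to 1.63 CPM in KO over 9 genes (1 of the 3 tested was called lower), and Col3a1 and Myod1 had no count.

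The genes most like Itga7 over the 6 libraries, by the Euclidean distance of centred log2 CPM among 9806 candidates, were Slc2a3 (distance 0.884), Mgarp (0.951) and Mboat2 (0.980). Slc2a3, a glucose transporter, held 157, 168 and 464 CPM in control and 17.7, 20.8 and 19.98 CPM in KO, with the same high control replicate 3. For Itgae the nearest were Kdm6b (0.214), Lrrc75a (0.254) and mt-Nd1 (0.265). These distances describe 6 libraries in 2 groups and carry no test.

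As a share of the summed RPKM of the 10 genes, Itgb1 took 18.5%, 20.6% and 15.4% in control and 28.1%, 28.7% and 34.0% in KO. Itgal took 26.3% to 31.3% in control and 18.8% to 25.9% in KO. Itga7 took 3.22%, 3.38% and 8.83% in control and 0.176%, 0.263% and 0.249% in KO. The 5 alpha chains together summed to 113 to 123 RPKM in control and 83.1 to 101 RPKM in KO, and the 5 beta chains to 165 to 197 and 202 to 242 RPKM. The sum over all 10 was 281 to 310.1 RPKM in control and 303 to 326 in KO, and these totals overlapped.

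**Figure D2:**
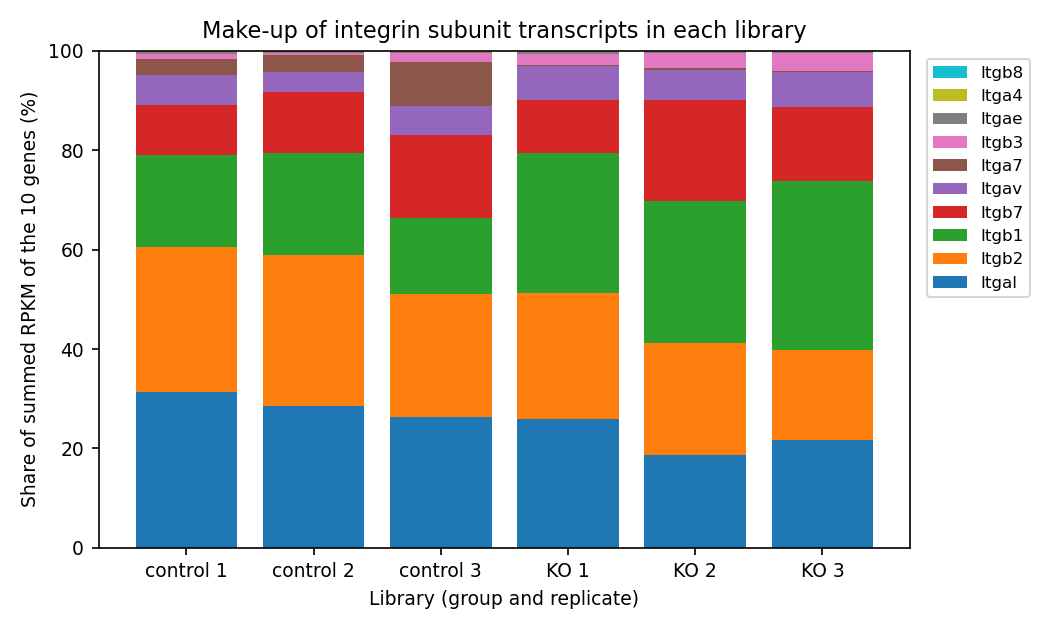
Share of each gene in the summed RPKM of the 10 integrin genes, in percent, 1 bar per library. The Itgb1 share is 15.4% to 20.6% in control and 28.1% to 34.0% in KO, and the Itga7 share is 3.22% to 8.83% in control and at most 0.263% in KO.

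The 17 other integrin chains are those left after the 10 members were set aside with their values known. Of these, 10 passed the filter: 3 fell in KO, 0 rose and 7 were not called by edgeR's quasi-likelihood test with Benjamini-Hochberg adjustment (4 of the 10 had an unadjusted p under 0.05, and DESeq2 also called 0 higher and 3 lower). This is 30.0% called, against 46.1% of all tested genes, and the median log2 fold change was −0.42. Since 4 chains called higher in KO were among the members set aside, nothing is read from these counts. Itga3, a laminin-binding alpha chain, fell from 132 ± 34.9 to 68.6 ± 16.8 CPM (SD, n = 3), at a log2 fold change of −0.94 with an SE of 0.218 (edgeR adjusted p = 0.00808). Its libraries held 111, 112 and 172 CPM in control and 61.2, 56.9 and 87.8 CPM in KO, without overlap. Itgb4, the beta chain of epithelial hemidesmosomes, fell from 3.54 ± 1.52 to 0.981 ± 0.142 CPM (−1.83, adjusted p = 0.00479). Itgb5, a further partner of Itgav, fell from 6.995 ± 3.81 to 3.24 ± 0.372 CPM (−1.11, adjusted p = 0.0360). This last call was lost in 4 of the 6 fits without 1 library (control replicate 3 and each KO replicate) and without replicate 3 of both groups (−0.50, adjusted p = 0.212), and control replicate 3 held 11.4 CPM against 5.11 and 4.499.

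The other 7 tested chains did not pass the test. Itga6, a laminin receptor chain, held 49.7 ± 4.24 and 52.6 ± 10.8 CPM (log2 fold change 0.082, edgeR adjusted p = 0.697). Itga5, the fibronectin receptor chain, held 22.3 ± 2.62 and 29.6 ± 5.59 CPM (0.41, adjusted p = 0.0823) and was called higher with the replicate number as a block (0.40, adjusted p = 0.0369). Itga2, a collagen receptor chain, held 3.54 ± 1.25 and 2.95 ± 0.652 CPM (−0.25, adjusted p = 0.586). The remaining chains, Itga2b, Itga9, Itga10 and Itga11, lay below 1.5 CPM in both group means, with log2 fold changes from −0.62 to 0.64, and Itga10 is uncertain because 33.5% of its exonic bases overlap Gm42957.

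Of the 7 chains below the filter, Itgb2l had no count and Itga1, Itga8, Itgad, Itgam and Itgb6 had at most 5 counts in a library. Itgax, the myeloid and dendritic CD11c chain, held 1, 2 and 0 counts in control and 20, 15 and 6 in KO. It failed the filter on low counts in the full fit. In each of the 7 alternative fits that tested Itgax, it was called higher in KO. Its log2 fold change there was 3.21 to 4.47 (edgeR adjusted p = 0.00253 to 0.0192), resting on at most 2 counts per control library. The 7 myeloid markers, Itgax among them, summed to 2.62 to 5.2 CPM in control and 17.7 to 28.8 CPM in KO. Most of this was Cd68, at 1.8 to 4.42 CPM in control and 13.3 to 25.3 CPM in KO. Of the 3 tested markers 2 were called higher, where 23.2% of all tested genes were called higher. Lyz2 (at most 0.095 CPM in control and 0.294 to 1.75 in KO) and Csf1r (0.206 to 0.451 and 0.587 to 1.63) were higher in every KO library. Cd14 (0.166 to 0.495 and 0.494 to 1.17) overlapped, and Adgre1 reached at most 0.134 CPM. Itgam, the CD11b chain, was at no more than 0.0713 CPM in any library. The Itgam level is uncertain, since 68.7% of its exonic bases overlap Gm49368 and its reads may not have been counted. The part of myeloid cells in the Itgax difference was not tested.

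**Figure D3:**
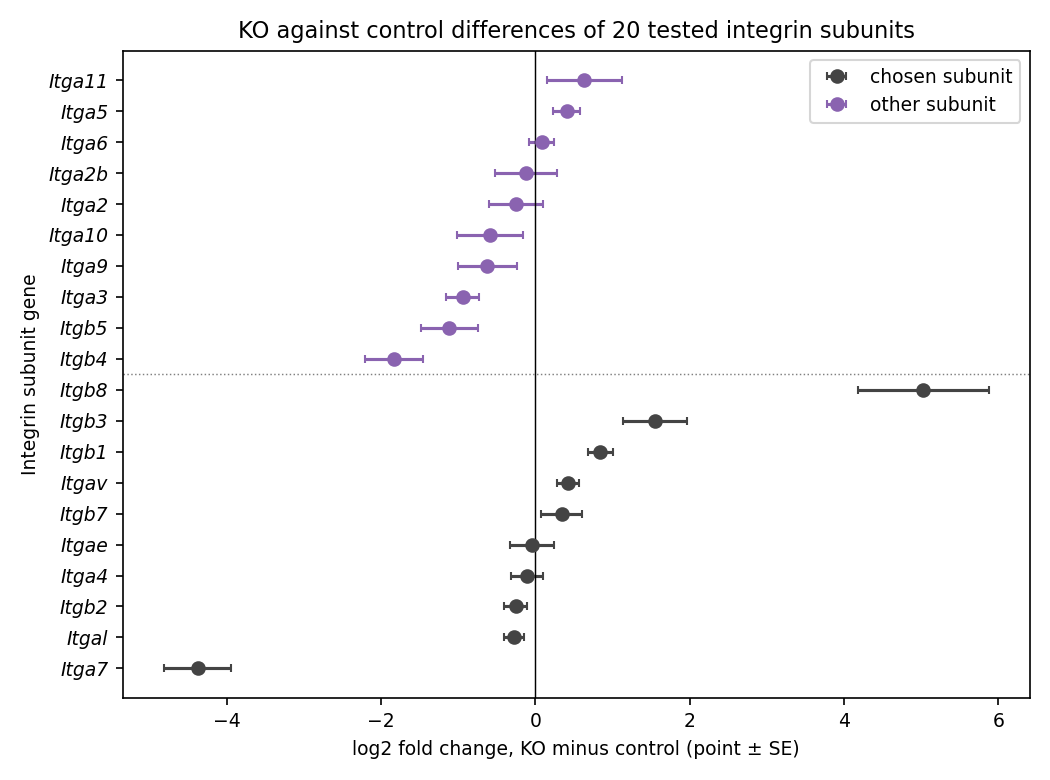
Log2 fold change of KO against control for the 10 chosen integrin genes (dark, below the dotted line) and the 10 other tested integrin genes (purple, above it), with points as edgeR estimates and bars as ± 1 SE. Itga7 lies at −4.38 and Itgb8 at 5.03, and all other estimates lie between −1.83 and 1.55.

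Genes that switch integrins on from inside the cell moved in both directions. Of 16 activators, 15 were tested, 3 rose and 7 fell (66.7% called, against 46.1% of all tested genes; median log2 fold change −0.37). Tln1, the talin that binds beta chain tails, rose from 414 ± 21 to 558 ± 19.8 CPM (SD over 3 libraries; 0.43 with an SE of 0.112, edgeR adjusted p = 0.0135), and its relative Tln2 fell from 7.47 ± 1.65 to 2.57 ± 1.503 CPM (−1.54, adjusted p = 0.0137; −2.14 without KO replicate 1). The adaptors of the T cell receptor to integrin route fell: Skap1 from 83.9 ± 12.2 to 42.8 ± 3.33 CPM (−0.97 with an SE of 0.136, adjusted p = 0.000867) and Fyb from 117 ± 44.5 to 49.1 ± 4.03 CPM (−1.25, adjusted p = 0.00307). Rasgrp1, an exchange factor acting on RAS, rose from 85.1 ± 19.9 to 144 ± 33.0 CPM (0.76, adjusted p = 0.0160). Rasgrp2, which activates RAP1 and is named after its values were seen because its mean is below 5 CPM, fell from 2.84 ± 0.631 to 0.558 ± 0.0929 CPM (−2.36, adjusted p = 0.00106). Fermt3, the kindlin of blood cells, held 297 ± 36.1 and 276 ± 27.0 CPM (adjusted p = 0.547). The kinase Stk4 rose in the full fit (0.31, adjusted p = 0.0407), but its call was lost in each of the 6 fits without 1 library. The calls of Stk4 (0.26, adjusted p = 0.156) and Tln1 (0.38, adjusted p = 0.0643) were also lost without replicate 3 of both groups. That fit left 1 higher call and 5 lower calls. The call of Tln1 was lost without control replicate 1, control replicate 3 or KO replicate 3, and that of Rasgrp1 without control replicate 1 or 2 or KO replicate 2 or 3. Without control replicate 1 or KO replicate 3 there were 0 higher calls, without control replicate 2, control replicate 3 or KO replicate 2 there was 1, and without KO replicate 2 or 3 the lower calls numbered 4.

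Of 7 tested inhibitors, genes that hold integrins inactive, Sharpin rose (log2 fold change 0.38, edgeR adjusted p = 0.0273), Sipa1, which switches RAP1 off, fell (−0.34, adjusted p = 0.0257) and 5 were not called (28.6% called, against 46.1% of all tested genes; median log2 fold change 0.13). Filamin gene Flna held 929.9 ± 275 and 955 ± 135 CPM (adjusted p = 0.899). Both calls were fragile: that of Sharpin was lost without any library but KO replicate 1, and that of Sipa1 without KO replicate 1, 2 or 3, each of which left 0 lower calls. Without replicate 3 of both groups neither was called (Sharpin 0.35, adjusted p = 0.0775; Sipa1 −0.33, adjusted p = 0.0562).

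Of 17 tested genes of the adhesion complex, the adaptors and kinases that gather at clustered integrins, 5 rose and 4 fell (52.9% called, against 46.1% of all tested genes; median log2 fold change 0.067). Paxillin gene Pxn rose from 79.5 ± 2.34 to 157 ± 3.36 CPM (SD over 3 libraries; 0.98 with an SE of 0.0978, edgeR adjusted p = 0.000236), with 77.0, 81.7 and 79.9 CPM in control and 155, 161 and 156 CPM in KO. Nedd9, a docking protein of T cells, rose from 47.9 ± 2.43 to 83.7 ± 8.86 CPM (0.81, adjusted p = 0.00110), whereas Bcar1 of the same family fell from 13.7 ± 2.49 to 3.58 ± 0.720 CPM (−1.93, adjusted p = 0.000530). The actin-binding partners Zyx (0.67, adjusted p = 0.00424) and Vasp (0.51, adjusted p = 0.00950) rose as well, and Tns1 rose by 0.89 (adjusted p = 0.0263). Parvg, the blood cell parvin, fell from 112 ± 4.58 to 58.0 ± 5.67 CPM (−0.95 with an SE of 0.113, adjusted p = 0.000483), and focal adhesion kinase gene Ptk2 fell from 26.0 ± 2.40 to 17.4 ± 0.745 CPM (−0.58, adjusted p = 0.00823). Tns3 fell to 0.132 ± 0.0637 CPM (−3.93, adjusted p = 0.00142). Zyx, Vasp and Tns3 are outside the naming rule and were named after their values were seen. The call of Tns1 was lost without control replicate 1, control replicate 2 or KO replicate 2 and that of Vasp without control replicate 1, which left 3 higher calls.

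Among 16 tested ligand genes 3 rose and 3 fell (37.5% called, against 46.1% of all tested genes; median log2 fold change −0.041). Icam1, the ligand of LFA-1, rose from 45.3 ± 2.96 to 113 ± 38.7 CPM (SD over 3 libraries; 1.31 with an SE of 0.225, edgeR adjusted p = 0.00210), with 42.0, 46.1 and 47.8 CPM in control and 110.2, 75.6 and 153 CPM in KO. Lamc1, a laminin chain, fell from 104 ± 50.6 to 40.0 ± 6.02 CPM (−1.37, adjusted p = 0.00618). Tgfb3, one of the TGF-beta genes, fell from 13.3 ± 11.7 to 2.73 ± 1.008 CPM (−2.27, adjusted p = 0.0121; −1.29 without control replicate 3 and −1.03 without replicate 3 of both groups). Tgfb1, whose latent product binds Itgav integrins, held 236 ± 23.2 and 239.9 ± 14.3 CPM (0.021, adjusted p = 0.898). The remaining calls were of genes near or below 3 CPM, named after their values were seen: Spp1 (2.74) and Cdh1 (3.66; 2.90 without control replicate 3, 2.86 without replicate 3 of both groups and 4.43 without control replicate 1) rose and Fn1 (−2.67) fell, and 11.6% of the 50-base stretches of Spp1 occur in Gm42793. Spp1 is also made by myeloid cells, whose 7 markers summed to 17.7 to 28.8 CPM in KO against 2.62 to 5.2 CPM in control, and their part was not tested. Exons of Icam1 and Tgfb3 overlap other annotated genes over 11.7% and 12.4% of their bases. With the replicate block 5 ligands fell, since Tnc (−1.65, adjusted p = 0.00216) and Lama5 (−0.997, adjusted p = 0.0140) were added.

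Membrane proteins that associate with integrins gave 3 genes that rose and 6 that fell of 12 tested (75.0% called, against 46.1% of all tested genes; median log2 fold change −0.36). Among the tetraspanins, Cd37 rose from 65.6 ± 9.71 to 135 ± 6.86 CPM (SD over 3 libraries; 1.04, edgeR adjusted p = 0.000542) and Cd9 from 12.3 ± 3.84 to 26.3 ± 5.81 CPM (1.09, adjusted p = 0.00801). Cd63 rose from 1.74 ± 1.73 to 9.55 ± 1.39 CPM (2.42, adjusted p = 0.0121; 3.75 without control replicate 3 and 3.72 without replicate 3 of both groups), and 11% of its 50-base stretches occur in Cd63-ps or Cyp20a1. In the other direction, Cd53 fell from 621 ± 217 to 244 ± 53.1 CPM (−1.35, adjusted p = 0.00310) and Cd81 from 147 ± 14.8 to 72.8 ± 23.6 CPM (−1.02, adjusted p = 0.00460). Cd226, a partner of LFA-1, fell from 25.2 ± 7.24 to 9.70 ± 1.58 CPM (−1.39, adjusted p = 0.00170). Without KO replicate 1 or KO replicate 2 the lower calls numbered 3. With the replicate block Cd82 was added to them (−0.47, adjusted p = 0.0159), making 7.

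Of 14 factors known to control Itgae, Itga4 or Itgb7, 5 rose and 1 fell (42.9% called, against 46.1% of all tested genes; median log2 fold change 0.16). Prdm1, the gene of the repressor BLIMP-1, rose from 0.676 ± 0.344 to 9.63 ± 4.88 CPM (SD over 3 libraries; 3.75 with an SE of 0.471, edgeR adjusted p = 0.000585), Smad7 from 38.1 ± 3.53 to 75.9 ± 9.67 CPM (0.996, adjusted p = 0.000803) and the receptor gene Tgfbr2 from 93.1 ± 8.23 to 124 ± 6.79 CPM (0.41, adjusted p = 0.0149). Rara (0.37) and Klf2 (2.62, at 3.74 ± 1.87 CPM in KO), named after their values were seen, rose too, and Rxra fell from 43.4 ± 5.56 to 24.7 ± 7.19 CPM (−0.81, adjusted p = 0.0160). Runx3, a known regulator of Itgae (0.050, adjusted p = 0.761), and Runx1 (0.041, adjusted p = 0.852) were not called. With the replicate block Smad3 was added to the higher calls (0.29, adjusted p = 0.0394), making 6, and Smad2 to the lower calls (−0.33, adjusted p = 0.0449), the latter without control replicate 3 as well (−0.49) and without replicate 3 of both groups (−0.44). Without control replicate 1, KO replicate 2 or KO replicate 3 the higher calls numbered 3, since Tgfbr2 and Rara were lost, and Rara was lost without control replicate 2 as well.

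**Figure D4:**
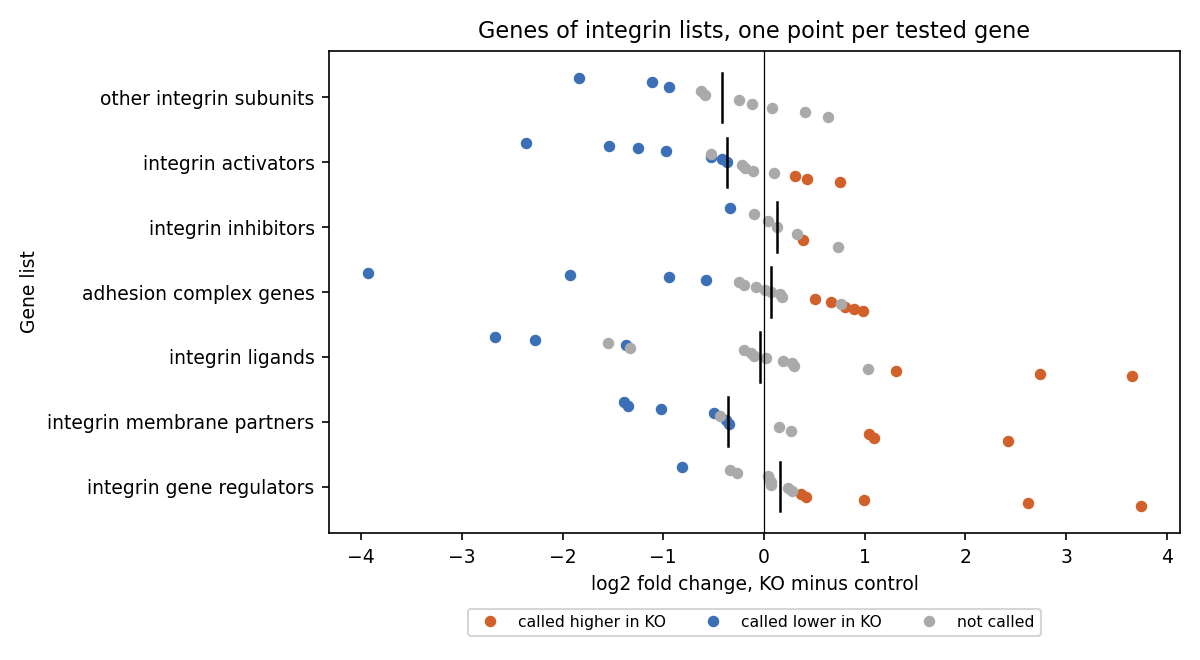
Log2 fold change of KO against control for every tested gene of 7 integrin-related lists, 1 point per gene, with black bars as list medians. Orange points were called higher and blue points lower in KO at an edgeR adjusted p under 0.05, and grey points were not called. Each list except the other integrin subunits, which leave out the chosen members, holds calls in both directions.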

How the data were processed

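RNA was measured in 6 Th17 libraries, 3 control and 3 KO, grouped and numbered by their titles. The authors deposited whole-number counts per gene symbol, with no normalization, and the submitters' processing notes name STAR, featureCounts, DESeq2 and mm10, without versions. Strand setting and annotation are not given in the sources used here. Every column matched 1 library and every line named a gene. KO was compared with control by edgeR's quasi-likelihood test (edgeR 4.0.16, R 4.3.3), with filterByExpr, TMM factors and Benjamini-Hochberg adjustment over all 14268 tested genes; calls have an adjusted p under 0.05. The standard error is the absolute log2 fold change over the square root of F. RPKM is CPM per kilobase of the union of exons in GENCODE M21 (GRCm38, which is mm10). The fit was tested on simulated data.

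Reads carry no stated molecular identifiers, so depth is only part of the precision; the biological coefficient of variation was 0.212. Libraries of equal number correlated in their deviations from group means (0.270, 0.130 and 0.379), each over 0.1. Control replicate 2 correlated more with KO replicate 1 (0.204) than with KO replicate 2. The other pairs of unequal number gave −0.39 to −0.018. These values do not settle whether libraries are paired by number. The reported tests treat all libraries as unpaired, and pairing enters only in the replicate block, an alternative. What a replicate number marks is not given in the sources used here. The members and gene lists were chosen with earlier results of these data known. Text names the 10 members, Rtf1, each tested integrin chain, from each other list the 3 called genes of largest rise and fall with a mean of at least 5 CPM, and the 3 genes nearest to Itga7 and to Itgae. Other genes named with values (the untested integrin chains and marker genes, Rasgrp2, Fermt3, Flna, Zyx, Vasp, Tns3, Tgfb1, Spp1, Cdh1, Fn1, Tnc, Lama5, Cd82, Rara, Klf2, Runx1, Runx3, Smad2 and Smad3) were named after their values were seen. Alternatives were DESeq2 size factors (and the DESeq2 1.42.0 test), upper-quartile factors, library size only, 2 filters, the replicate block, libraries 1 and 2 only, and leaving out each library.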

Additional observations from a re-analysis of the deposited data

How the results depend on the processing

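The count of called genes was 6574 in all and 6351 to 7628 under the 8 alternatives that kept every library or only numbers 1 and 2. It ran from 4460 (without KO replicate 2) to 7050 when 1 library was left out. The log2 fold change of Rtf1 stayed between −1.69 and −1.27 and called. Of the 10 members, 9 kept their sign in all 14 alternatives, and Itgae did not.

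Small lists moved by single genes. With the replicate block 1 other integrin subunit (Itga5) was higher (0 in the full fit), 5 ligands were lower (3) and 2 gene regulators were lower (1). The block raised the count of called genes to 7628 and ended no call of a gene in the integrin lists. With upper-quartile factors 2 gene regulators were lower. With library size only, 1 other subunit (Itga5) was higher and 0 inhibitors were lower (1). Without a filter, 1 other subunit (Itgax) was higher, and 0 inhibitors were higher (1). With libraries numbered 1 and 2 only, 1 other subunit (Itgax) and 1 activator (3) were higher. In that fit 0 inhibitors were higher or lower, and 2 gene regulators were lower.

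Leaving out 1 library gave 1 other subunit higher in each fit, Itga5 without KO replicate 2 and Itgax in the others. The same fits gave 0 to 2 activators higher and 4 to 7 lower, and 0 to 1 inhibitors higher and 0 to 1 lower. Adhesion complex genes called higher numbered 3 to 5 and membrane partners called lower 3 to 6. Gene regulators numbered 3 to 6 higher and 1 to 2 lower. Among genes not called, Itga2b (−0.41 to 0.19 when 1 library was left out) changed sign when control replicate 3 (0.19) or KO replicate 3 (0.0045) was omitted and with libraries 1 and 2 only (0.36). Itga6 (−0.096 to 0.18) did so when control replicate 1 (−0.055) or KO replicate 2 (−0.096) was omitted. The causes were not tested. Depth limits Itgb8 and Itgax, with at most 12 and 2 counts per control library.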
